A study of Arabidopsis thaliana with 12 samples.

Results

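UDP-glycosyltransferases, the UGT enzymes, move a sugar from a UDP-sugar onto a small molecule. In plants the acceptors include hormones, phenylpropanoids, flavonols, sterols, glucosinolate precursors and foreign compounds, and a hormone joined to glucose is usually inactive or kept in store. The genes carry a systematic name of a family number, a subfamily letter and a gene number, so that *UGT84A1* and *UGT84A3* are close relatives. Members of a subfamily often lie side by side on a chromosome.

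Here 50 UGT genes of *Arabidopsis thaliana* from 12 families were followed, with *UGT78D2* left out. Each was read by 1 probe set, a group of short oligonucleotides on the ATH1 array that match the same transcript, out of 22746 probe sets tested. A gene was taken where its symbol started with UGT and a number and its probe set was paired with no other gene. The probe annotation gave 46 of the genes. *UGT74E2*, *UGT74F2*, *UGT75B1* and *UGT85A1* came only from the study's supplementary tables, which list genes that its authors selected on these same arrays, so the changes of these 4 genes are not independent of their choice. A further 4 UGT probe sets match several genes and were left out.

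The study asked how seedlings that overexpress *PtSnRK2.7*, a subclass II SnRK2 kinase gene of the poplar *Populus trichocarpa*, differ from wild-type Columbia seedlings with and without salt. SnRK2 kinases act in abscisic acid (ABA) and osmotic stress signaling. The overexpressor was 1 transgenic line, line 20, in the T2 generation, in which the cauliflower mosaic virus 35S promoter drives the poplar cDNA in most tissues, and no array of a vector control was among the samples. Whole seedlings of both genotypes were moved at 7 days of age to medium with 200 mM NaCl (salt) or without NaCl (mock) for 2 days. The 4 groups are the wild-type mock, wild-type salt, overexpressor mock and overexpressor salt seedlings, each with 3 arrays from independent biological replicates, 12 in all. Signals were MAS5 values, which are linear intensities that the authors scaled to the same trimmed mean on each array, 500.04 to 500.05. Array medians were 169.5 to 194.7. Differences are on the log2 scale, where 1 is a doubling, and were tested with limma, with p-values adjusted over all probe sets and a gene called at an adjusted p under 0.05.

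Wild-type salt replicate 2 stood apart from the other salt arrays. The median SD of log2 signals over all probe sets was 0.36 among the wild-type salt arrays and 0.20 to 0.21 in the other groups. Over the 18 UGT genes that rose with salt in both genotypes, the median change against the wild-type mock mean was 3.08, 1.90 and 3.01 in wild-type salt replicates 1, 2 and 3. Replicate 2 was the lowest of the 3 arrays for 16 of those 18 genes. The overexpressor salt arrays gave 2.76, 2.54 and 2.69 for the same genes. The 20th percentile of the signals lay between 20.6 and 27.9 on the arrays, and no detection calls were used. A gene was taken as near background in a group where at least 2 of the 3 arrays were below that level, and where this bears on a called salt change the change is also given with each array's signals raised to its own 20th percentile. By this rule 8 of the 50 genes were near background in the wild-type mock, 5 in the wild-type salt, 8 in the overexpressor mock and 6 in the overexpressor salt group, and 3 genes (*UGT76E1*, *UGT78D3* and *UGT84B1*) were near background in every group.

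More UGT genes rose than fell with salt. In the wild-type 19 of the 50 genes rose (38.0%) and 7 fell (14.0%), against 17.2% of all probe sets tested that rose and 21.9% that fell. In the overexpressor 20 rose (40%) and 14 fell (28.0%), against 17.1% and 24.0% of all probe sets. The median change of the 50 genes was 0.29 in wild-type seedlings and 0.38 in the overexpressor, and that of all probe sets was -0.07 and -0.09. Without the 4 genes taken from the supplementary tables, 15 of 46 rose and 7 fell in the wild-type, with a median of 0.18, and 16 rose and 14 fell in the overexpressor, with a median of 0.24. With wild-type salt replicate 2 left out, 12 genes fell in the wild-type, where 25.2% of all probe sets then fell. The methods' t-test, run on each probe set, called 0 of the 50 genes in the wild-type after adjustment and 15 higher and 9 lower in the overexpressor. Of all 22746 probe sets it called 4 higher and 0 lower in the wild-type and 2553 and 3546 in the overexpressor.

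On all 12 arrays the calls had the same direction in both genotypes wherever both were made. Of the 50 genes, 18 rose in both and 6 fell in both, against 12.6% and 17.0% of all probe sets. With wild-type salt replicate 2 left out, *UGT71C5* was called higher in wild-type seedlings (0.38, adjusted p = 0.0453) and lower in the overexpressor. *UGT73D1* rose and *UGT74D1* fell with a call in the wild-type alone, *UGT85A3* and *UGT80B1* rose with a call in the overexpressor alone, and 8 genes fell with a call in the overexpressor alone. Calls in 1 genotype alone were also found across the array. Of all probe sets 17.2% rose and 21.9% fell in the wild-type and 17.1% and 24.0% in the overexpressor, but 12.6% and 17.0% in both. Of the 8, *UGT71C1* and *UGT72E2* were also called lower in the wild-type without wild-type salt replicate 2. Whether a gene's response differed by genotype was tested by the interaction, given further on. The remaining 14 genes were called in neither. A change of more than 3-fold with a call was found for 15 risen genes in wild-type seedlings and 16 in the overexpressor, 14 of them in both, against 5.42%, 5.68% and 3.93% of all probe sets. *UGT74E2*, *UGT74F2*, *UGT75B1* and *UGT85A1* are in each of these counts and among the 18 that rose in both. They were taken from lists of genes selected on these same arrays, so these counts are not independent of that choice. For fallen genes the counts were 2 and 4, with 2 in both, against 4.84%, 6.12% and 3.34%.

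**Figure D1:**
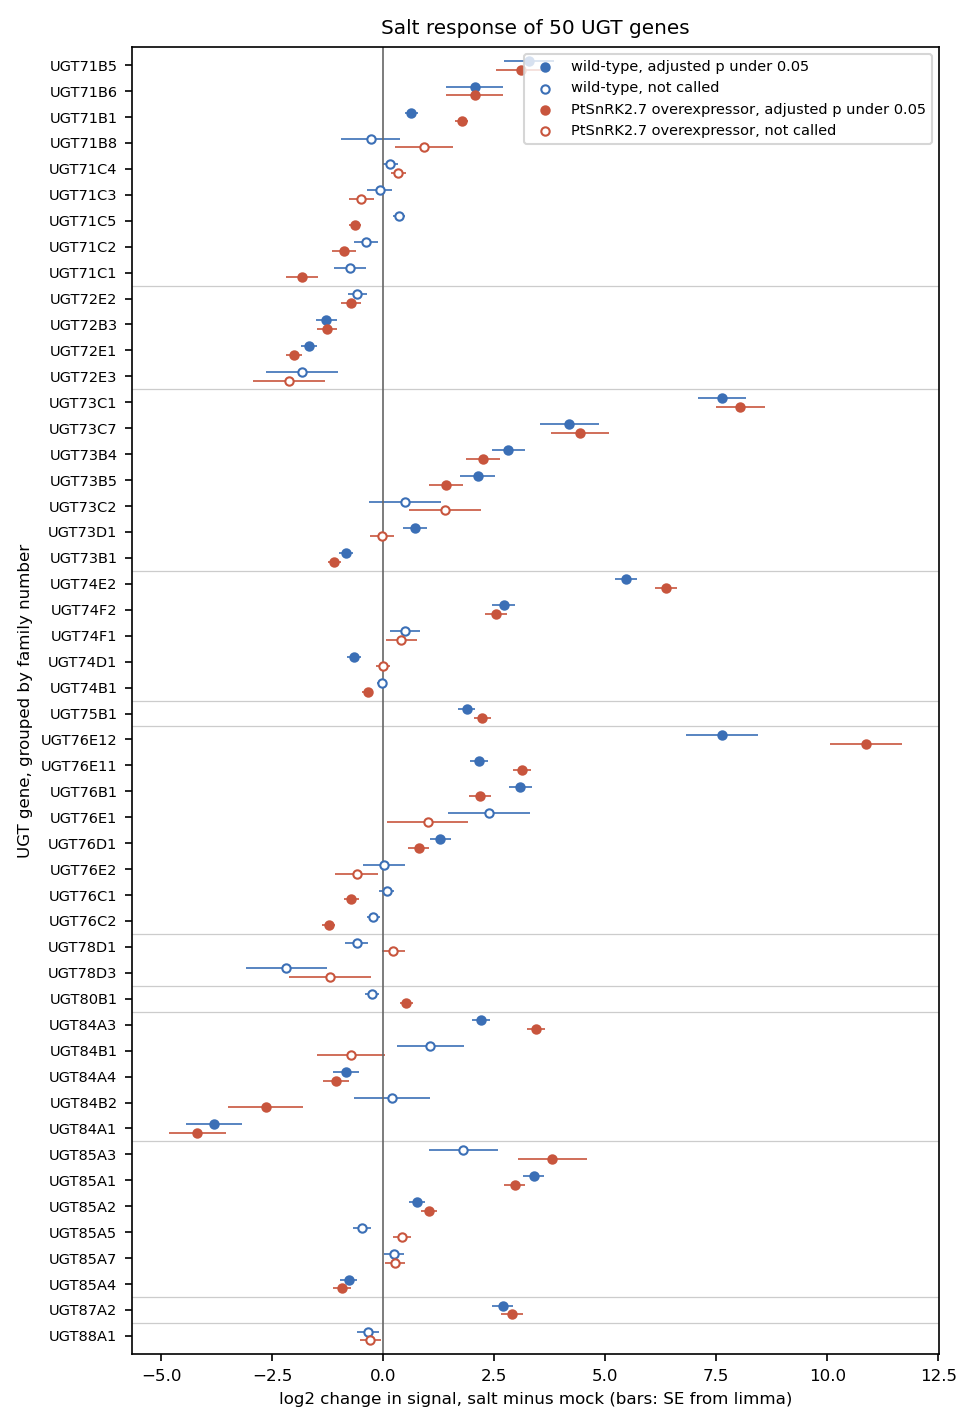
Log2 change in signal from mock to salt (horizontal axis) for each of the 50 UGT genes (vertical axis, grouped by family number), in the wild-type (blue) and the PtSnRK2.7 overexpressor (red). Points are differences between mean log2 signals of 3 arrays, bars are standard errors from limma, and filled points passed an adjusted p under 0.05. The changes ran from -3.81 to 7.63 in wild-type seedlings and from -4.19 to 10.88 in the overexpressor.

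The seedlings were whole, so a fall in signal from fewer cells of a type and one from less RNA per cell cannot be told apart. Of 8 shoot marker genes, 2 were found among the paired probe sets, and the others may have probe sets that were not paired. *RCA*, the activase of Rubisco, changed by -0.86 in wild-type seedlings and -1.12 in the overexpressor, and *LHCB4.2*, a light-harvesting antenna gene, by -1.65 and -1.30, all of them called (limma adjusted p = 0.00459 to 0.0423). Of 8 root markers 1 was found, *EXPA7*, a root hair expansin, with changes of 0.37 and -0.09 and no call. None of the seed and flower markers listed was found among the paired probe sets, which does not mean that the array lacks them. The part of a shift between shoot and root RNA in the UGT changes was not tested.

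Among the genes for hormone conjugation, *UGT74E2* had the steepest rise of those with a clear mock signal. Its enzyme joins glucose to the auxin precursor indole-3-butyric acid. *UGT74E2* signals were 327.6, 213.8 and 269.6 in wild-type mock replicates 1, 2 and 3 and 13220, 7289 and 16790 in the wild-type salt replicates. In the overexpressor they were 111.1, 133.3 and 130.5 in mock and 11041, 9544 and 10215 in salt. The salt arrays lay far above the mock arrays in both genotypes with no overlap, and the 3 overexpressor mock arrays lay below all 3 wild-type mock arrays. *UGT74E2* rose by 5.46 (SE 0.25, adjusted p = 1.58e-07) in wild-type seedlings and by 6.36 (SE 0.25, adjusted p = 1.96e-08) in the overexpressor. The genotypes' mock signals differed by -1.10 (SE 0.25, adjusted p = 0.0898), which was not called, and with wild-type salt replicate 2 or 3 left out of the shared spread the same difference of -1.10 was called (limma adjusted p = 0.00231 and 0.0475). *UGT74D1* and *UGT84B1*, the other auxin-conjugating genes given here, did not share this rise. *UGT74D1*, whose product glucosylates auxins, had signals of 1073, 1296 and 965.3 in the wild-type mock and 726.2, 733.3 and 641.7 in the wild-type salt arrays, a fall with no overlap (-0.66, SE 0.16, adjusted p = 0.00647). In the overexpressor its mock signals of 960.6, 786.2 and 862.5 and salt signals of 819.4, 707 and 1117 overlapped, with a change of 0.00 (SE 0.16, adjusted p = 0.99). *UGT84B1*, which acts on indole-3-acetic acid, stayed near background with signals of 5.93, 3.22 and 3.5 in the wild-type mock and at most 24.7 on any array, and was not called.

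Of the genes given here for cytokinin conjugation, which need not be a full list, *UGT85A1* rose in both genotypes. *UGT76C1* and *UGT76C2* fell with a call in the overexpressor. *UGT85A1*, whose enzyme O-glucosylates trans-zeatin, had signals of 1014, 683.9 and 753.1 in the wild-type mock and 11522, 5181 and 10041 in the wild-type salt arrays. The overexpressor gave 878.3, 835.2 and 859.7 in mock and 7044, 6743 and 6207 in salt. No salt array overlapped a mock array, and the gene rose by 3.39 (SE 0.24, adjusted p = 1.24e-06) in wild-type seedlings and by 2.96 (SE 0.24, adjusted p = 1.93e-06) in the overexpressor. *UGT76C1* and *UGT76C2* encode enzymes that N-glucosylate cytokinins. *UGT76C2* signals were 331.9, 344.9 and 301.6 in wild-type mock, 305, 230.3 and 313.4 in wild-type salt, 489.6, 467.7 and 528.6 in overexpressor mock and 195.6, 216.7 and 220.5 in overexpressor salt seedlings. The overexpressor mock arrays were above all wild-type arrays, and the overexpressor salt arrays were below them all. *UGT76C2* fell in the overexpressor (-1.23, SE 0.14, adjusted p = 2.35e-05) and its change in the wild-type was -0.22 (SE 0.14, adjusted p = 0.248). *UGT76C1* had the same order in the overexpressor, with 262.3, 278.4 and 260.9 in mock and 146.9, 159.2 and 180.9 in salt arrays, a change of -0.72 (SE 0.17, adjusted p = 0.00444). Its wild-type mock signals of 134.1, 167.6 and 176 overlapped the wild-type salt signals of 191.4, 178.1 and 137.5.

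Of the genes given here for salicylic acid conjugation, *UGT74F2* and *UGT76B1* rose with salt and *UGT74F1* was not called. *UGT74F2* and its neighbour *UGT74F1* encode salicylic acid glucosyltransferases, and *UGT76B1* glucosylates salicylic acid and isoleucic acid, a modulator of defense. *UGT74F2* signals were 672.7, 522.2 and 714.3 in wild-type mock and 5444, 2419 and 5331 in wild-type salt, and 672.8, 718.8 and 888.9 in overexpressor mock against 4578, 4242 and 4333 in overexpressor salt seedlings. The salt arrays were higher without overlap, and the rise was 2.71 (SE 0.25) in wild-type seedlings and 2.54 (SE 0.25) in the overexpressor (adjusted p = 9.36e-06 and 1.01e-05). *UGT74F1* stayed low, between 26.0 and 71.1 on the wild-type and 32.5 and 56.8 on the overexpressor arrays, and was called in neither. *UGT76B1* signals were 447.9, 319.2 and 339.4 in wild-type mock and 2613, 2492 and 4640 in wild-type salt, and 517.4, 665.4 and 602.9 in overexpressor mock against 3085, 3292 and 1904 in overexpressor salt seedlings. The gene rose by 3.09 (SE 0.25, adjusted p = 3.55e-06) in wild-type seedlings and by 2.18 (SE 0.25, adjusted p = 2.97e-05) in the overexpressor. Its overexpressor mock arrays all lay above the wild-type mock arrays, a difference of 0.70 (SE 0.25, adjusted p = 0.367) that was not called. *UGT76D1*, which glycosylates dihydroxybenzoic acids made from salicylic acid, rose by 1.29 and 0.80 (adjusted p = 0.000893 and 0.0157), from 64.2 ± 11.7 to 158.1 ± 34.5 in wild-type seedlings and from 76.2 ± 11.3 to 132.9 ± 21.8 in the overexpressor (mean ± SD, n = 3 arrays).

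**Figure D2:**
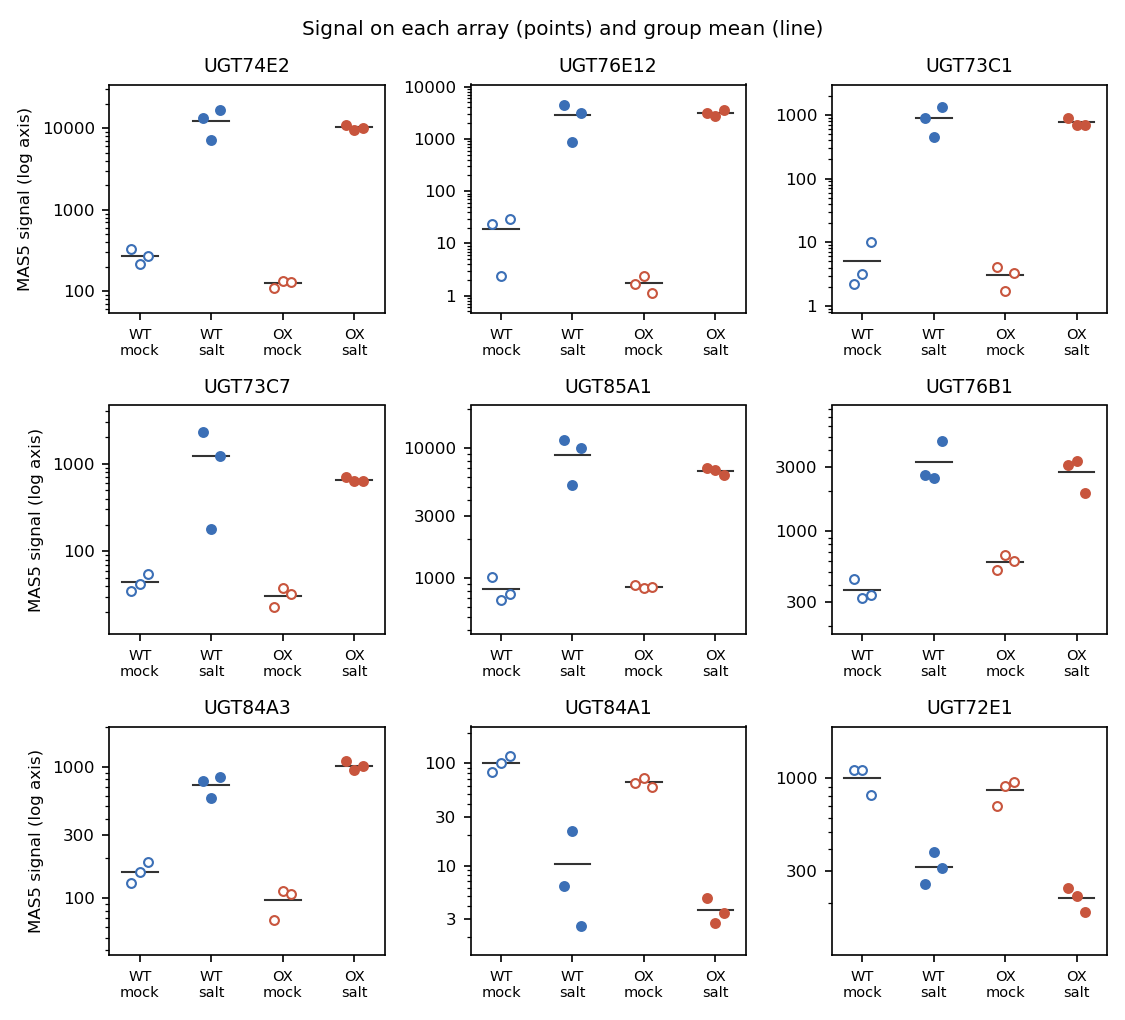
MAS5 signal (vertical axis, logarithmic, different in each panel) on each of the 12 arrays for 9 UGT genes. Points are arrays, lines are group means, WT is the wild-type, OX the PtSnRK2.7 overexpressor, and filled points are salt. UGT84A1 and UGT72E1 fell and the other 7 rose with no overlap of salt and mock arrays, and for UGT73C7 wild-type salt replicate 2 was 180.2 where the other wild-type salt arrays were 2296 and 1210.

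For ABA conjugation *UGT71B6*, *UGT71B5* and *UGT71C5* are given here, which need not be a full list. Of the other UGT71B genes, described further on, *UGT71B1* rose in both genotypes. *UGT71B8* was called in neither, with changes of -0.28 and 0.92. *UGT71B6* glucosylates ABA, *UGT71B5* is a close relative, and *UGT71C5* also makes the ABA glucose ester. *UGT71B6* signals were 41.3, 39.3 and 32.8 in wild-type mock and 418.5, 47.6 and 193.3 in wild-type salt, so replicate 2 was close to the mock arrays while replicates 1 and 3 were well above them. The overexpressor gave 17.6, 41.2 and 55.8 in mock and 113.2, 206.4 and 125.1 in salt, with no overlap. The rise was 2.06 (SE 0.64, adjusted p = 0.0223) in wild-type seedlings and 2.06 (SE 0.64, adjusted p = 0.0212) in the overexpressor. With signals raised to the 20th percentile the overexpressor rise was 1.90. Without wild-type salt replicate 2 the wild-type rise was 2.92 and without replicate 1 it was 1.35. The wild-type call was lost without wild-type mock replicate 2 or 3 or wild-type salt replicate 1 or 3 (adjusted p = 0.0528, 0.0643, 0.0993 and 0.0729), and the overexpressor call without mock replicate 1 or salt replicate 2 (adjusted p = 0.0952 and 0.0789). *UGT71B5* was near background in both mock groups, 33.7, 21.7 and 18.4 in the wild-type against 52.7, 7.4 and 18.9 in the overexpressor, and reached 178, 230 and 300.5 in wild-type salt and 193.7, 106.4 and 226.2 in overexpressor salt seedlings. It rose by 3.28 and 3.10 (adjusted p = 0.000689 and 0.000878), or by 3.08 and 2.45 with signals raised to the 20th percentile. The overexpressor rise was 3.82 without mock replicate 1 and 2.40 without mock replicate 2. *UGT71C5* did not follow them. Its signals were 316.1, 302.8 and 357 in wild-type mock, 417.5, 395.6 and 429.7 in wild-type salt, 399.7, 464.5 and 548.9 in overexpressor mock and 306.4, 324.4 and 278.6 in overexpressor salt arrays. No pair of these groups that differ in salt or in genotype alone overlapped: the wild-type salt arrays were higher than mock (0.35, SE 0.13, adjusted p = 0.0524, not called) and the overexpressor salt arrays were lower than mock (-0.63, SE 0.13, adjusted p = 0.00216, called). Without wild-type salt replicate 2 the wild-type rise of *UGT71C5* was 0.38 and was called (adjusted p = 0.0453).

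Family 73, many of whose enzymes act on foreign compounds and on flavonoids, had 5 risen and 1 fallen of 7 genes in wild-type seedlings and 4 and 1 in the overexpressor, with medians of 2.13 and 1.41. The shares of all probe sets were 17.2% and 21.9% in wild-type seedlings and 17.1% and 24.0% in the overexpressor. *UGT73C1* was near background in mock, with 2.23, 3.16 and 9.97 in wild-type seedlings and 4.14, 1.73 and 3.27 in the overexpressor, and with salt reached 900.8, 452.7 and 1339 in wild-type arrays against 903.8, 680.8 and 700.6 in overexpressor arrays. Its fitted rise was 7.63 (SE 0.55, adjusted p = 1.48e-06) and 8.04 (SE 0.55, adjusted p = 6.05e-07), and 5.07 and 4.99 with the mock signals raised to the 20th percentile. Without wild-type mock replicate 3 the wild-type rise was 8.27. *UGT73C7* signals were 35.4, 42.5 and 54.2 in wild-type mock and 2296, 180.2 and 1210 in wild-type salt, and 22.8, 37.5 and 32.8 in overexpressor mock against 701.2, 636.4 and 630.3 in overexpressor salt seedlings. All salt arrays were above all mock arrays, with wild-type salt replicate 2 far below the other wild-type salt arrays. The rise was 4.19 (SE 0.66, adjusted p = 0.000324) and 4.43 (SE 0.66, adjusted p = 0.000185) in the wild-type and the overexpressor, and without wild-type salt replicate 2 or 1 the wild-type rise was 5.26 or 3.43. *UGT73B4*, like *UGT73C1*, encodes an enzyme that can glucosylate products formed from the explosive trinitrotoluene. Its signals went from 75, 154.8 and 89.1 to 1201, 362.1 and 840 in wild-type seedlings, again with replicate 2 the lowest wild-type salt array. In the overexpressor they went from 71.5, 97.7 and 82.8 to 323.8, 435.5 and 443.3. *UGT73B4* rose by 2.82 and 2.25 and its neighbour *UGT73B5* by 2.13 and 1.41 (adjusted p = 0.000107, 0.000423, 0.000866 and 0.0104 in that order). The call of *UGT73B5* in the overexpressor was lost without mock replicate 1 (1.09, adjusted p = 0.0523).

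The other family 73 genes moved less or the other way. *UGT73B1* fell without overlap, from 403.6, 359.7 and 320.4 to 183.8, 205.7 and 216.3 in wild-type seedlings and from 386.8, 324.5 and 437.3 to 175.9, 187.3 and 169.5 in the overexpressor. The change with salt was -0.84 (SE 0.15, adjusted p = 0.000659) in wild-type and -1.10 (SE 0.15, adjusted p = 7.9e-05) in overexpressor seedlings. *UGT73D1*, the neighbour of *UGT73C7*, was called higher in the wild-type (0.71, SE 0.27, adjusted p = 0.0495), a call that was lost on leaving out any 1 array other than wild-type salt replicate 2 (adjusted p = 0.0511 to 0.182). In the overexpressor its change was -0.02 (SE 0.27). *UGT73C2*, next to *UGT73C1*, was near background in mock and was not called.

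In the UGT76E subfamily *UGT76E12* and *UGT76E11*, which lie close together on chromosome 3, both rose. *UGT76E12* signals were 23.7, 2.42 and 29.5 in wild-type mock and 1.71, 2.37 and 1.13 in overexpressor mock, at or near background, but 4539, 886.1 and 3198 in wild-type salt and 3146, 2790 and 3536 in overexpressor salt seedlings. The fitted changes of 7.62 (SE 0.81, adjusted p = 2.15e-05) and 10.88 (SE 0.81, adjusted p = 1.03e-06) rest on mock values close to 0 in signal, and with signals raised to the 20th percentile they were 6.51 and 7.05. The wild-type change was 6.47 without wild-type mock replicate 2, 8.27 without mock replicate 3 and 8.32 without salt replicate 2. The difference between the genotypes in mock, -2.84 (SE 0.81, adjusted p = 0.209), was -0.12 on that floor, and it was called only when wild-type mock replicate 2 was left out (-3.99, adjusted p = 0.0119) or arrays were weighted. *UGT76E11* had a clear mock signal, 235.5, 211.6 and 281.3 in wild-type seedlings and 140.2, 152.4 and 145.9 in the overexpressor, and with salt 1482, 744.7 and 1142 in the wild-type against 1234, 1169 and 1420 in the overexpressor. It rose by 2.16 (SE 0.20, adjusted p = 9.63e-06) in wild-type seedlings and by 3.12 (SE 0.20, adjusted p = 4.03e-07) in the overexpressor, and all its overexpressor mock arrays were below the wild-type mock arrays. Their relatives *UGT76E1* and *UGT76E2*, also neighbours, were not called, and no signal of theirs was above 45.4.

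Other risen genes had clear mock signals too. *UGT87A2*, which affects flowering time, went from 827, 735.6 and 1026 to 7368, 3375 and 6692 in wild-type seedlings and from 600.4, 694 and 558 to 4623, 4355 and 4770 in the overexpressor. It rose by 2.69 (SE 0.24, adjusted p = 6.18e-06) in wild-type seedlings and by 2.90 (SE 0.24, adjusted p = 2e-06) in the overexpressor. *UGT75B1*, whose enzyme glucosylates p-aminobenzoic acid and is found at the cell plate, went from 431.2, 343.8 and 380.9 to 1663, 1043 and 1626 in wild-type and from 264.1, 348.2 and 378.9 to 1395, 1550 and 1669 in overexpressor seedlings, a rise of 1.88 and 2.23 (adjusted p = 1.33e-05 and 2.3e-06). In family 85, beside *UGT85A1*, *UGT85A2* rose by 0.75 and 1.04 (adjusted p = 0.00551 and 0.000566). *UGT85A3* went from 42.8, 39.2 and 54.2 to 204.4, 99.9 and 187.5 in wild-type seedlings and from 2.89, 45.1 and 37.6 to 241, 254.8 and 219.9 in the overexpressor. The arrays did not overlap in either genotype, and overexpressor mock replicate 1 was far below the other mock arrays. *UGT85A3* was called in the overexpressor (3.81, SE 0.78, adjusted p = 0.0017, or 2.78 with signals raised to the 20th percentile, 2.53 without mock replicate 1 and 4.51 without mock replicate 2) and not in the wild-type (1.80, SE 0.78, adjusted p = 0.0871), where it was called once overexpressor mock replicate 1 was left out of the shared spread (1.80, adjusted p = 0.000477) or signals were raised to the 20th percentile (adjusted p = 0.000363). *UGT85A4* fell in both (-0.78 and -0.92, adjusted p = 0.0086 and 0.00287), and *UGT85A5* and *UGT85A7* were called in neither. *UGT85A5* was called lower in the wild-type without wild-type salt replicate 3 (-0.61, adjusted p = 0.0445) and higher in the overexpressor without mock replicate 1 (0.61, adjusted p = 0.0385).

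The genes measured for phenylpropanoid glucosylation fell or were not called, apart from *UGT84A3*, which rose. *UGT72E1*, *UGT72E2* and *UGT72E3* act on monolignols, the units of lignin, and on their aldehydes. *UGT72E1* signals were 1109, 1117 and 802.1 in wild-type mock and 253.5, 386.1 and 314.9 in wild-type salt, and 697.7, 910.9 and 958.2 in overexpressor mock against 240.6, 217.8 and 178 in overexpressor salt seedlings. It fell without overlap in both genotypes, with a change of -1.67 (SE 0.19, adjusted p = 3.83e-05) and -2.01 (SE 0.19, adjusted p = 7.04e-06), and its overexpressor salt arrays were below all wild-type salt arrays. *UGT72E2* signals were 757.7, 683 and 763.5 in wild-type mock, 482.1, 559.4 and 434.2 in wild-type salt, 410.3, 699 and 665.3 in overexpressor mock and 298.6, 484.7 and 293.2 in overexpressor salt arrays, where the overexpressor groups overlapped. With salt it changed by -0.58 (SE 0.22, adjusted p = 0.0533) in wild-type seedlings and by -0.72 (SE 0.22, adjusted p = 0.0192) in overexpressor seedlings. The overexpressor call was lost without mock replicate 2 or 3 or salt replicate 1 or 3 (adjusted p = 0.0782 to 0.0841), and the wild-type change was called without wild-type salt replicate 2 (-0.68, adjusted p = 0.0329), overexpressor mock replicate 1 or overexpressor salt replicate 2 (adjusted p = 0.0239 and 0.0266). *UGT72E3* had mock signals of 87.3, 96.2 and 68.6 in the wild-type against 87.3, 78.2 and 86.7 in the overexpressor. Its salt signals were scattered, 6.43, 55.4 and 36.5 against 25.3, 50.9 and 5.49 in the same order, all below the mock arrays. Its changes of -1.82 and -2.13 were not called (adjusted p = 0.0941 and 0.0511), but were called with signals raised to the 20th percentile (-1.25 and -1.40, adjusted p = 0.0102 and 0.00492). They were also called in the wild-type without wild-type salt replicate 2 or overexpressor salt replicate 3 (adjusted p = 0.0279 and 0.0442), and in the overexpressor without wild-type salt replicate 1 or 2 or overexpressor salt replicate 2 (adjusted p = 0.0139, 0.0313 and 0.0182). *UGT72B3*, of the same family, fell in both genotypes, with changes of -1.28 and -1.27 (adjusted p = 0.000777 and 0.000717). None of the 4 family 72 genes among the 50 rose.

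The enzymes of the UGT84A genes make glucose esters of hydroxycinnamic acids such as sinapic acid. *UGT84A1*, *UGT84A3* and *UGT84A4* are consecutive genes on chromosome 4, and they moved apart. *UGT84A3* signals were 129.1, 158.5 and 189.2 in wild-type mock, 775.9, 574.2 and 839.2 in wild-type salt, 67.8, 112.9 and 106.9 in overexpressor mock and 1097, 945.9 and 1008 in overexpressor salt arrays. Every salt array was above every mock array, and the overexpressor arrays were below the wild-type arrays in mock and above them in salt. *UGT84A3* rose by 2.20 (SE 0.21, adjusted p = 1.16e-05) in wild-type seedlings and by 3.44 (SE 0.21, adjusted p = 2.6e-07) in the overexpressor. *UGT84A1* went from 81.7, 100.8 and 118.3 to 6.25, 22 and 2.58 in wild-type seedlings and from 64.4, 71.8 and 59 to 4.81, 2.72 and 3.42 in the overexpressor. Both salt groups were near background, and *UGT84A1* changed by -3.81 (SE 0.64, adjusted p = 0.000499) and by -4.19 (SE 0.64, adjusted p = 0.000214), or by -2.04 and -1.47 with signals raised to the 20th percentile. Leaving out wild-type salt replicate 2 gave a wild-type change of -4.63, and leaving out replicate 3 gave -3.08. *UGT84A4* went from 181.5, 206.8 and 171.7 to 85.8, 182.8 and 72 in the wild-type, where replicate 2 lay among the mock arrays, and from 149.6, 151.7 and 179.4 to 76.3, 82.7 and 70.6 in the overexpressor, where no array overlapped. *UGT84A4* changed by -0.84 (SE 0.29, adjusted p = 0.0347) in wild-type seedlings and by -1.06 (SE 0.29, adjusted p = 0.00973) in overexpressor seedlings. The wild-type call was lost without any 1 of the wild-type arrays other than salt replicate 2 (adjusted p = 0.0602 to 0.146). *UGT84B2*, of the same family, was near background in 3 of the 4 groups. It was called lower in the overexpressor, but its change there was -0.12 and not called with signals raised to the 20th percentile, and the call was also lost without overexpressor mock replicate 1 or 2 or salt replicate 1 or 2 (adjusted p = 0.0778 to 0.092). Leaving out overexpressor mock or salt replicate 3 moved it from -2.65 to -3.40 and -3.35.

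The steps that feed these enzymes were thinly covered by the pairing of probe sets with gene symbols. Of 25 genes for phenylpropanoid enzymes 3 were found by symbol, and the others may have probe sets that were not paired. *PAL3*, a phenylalanine ammonia-lyase gene taken from the supplementary tables, changed by -2.31 and -2.17, and *CCR2*, which encodes a cinnamoyl-CoA reductase, by 2.93 and 2.33, all called (limma adjusted p = 1.21e-05 to 4.51e-05). *HCT*, the hydroxycinnamoyl transferase gene, changed by 0.22 and -0.09 without a call. Of 30 genes for making UDP-sugars, the donors of all these reactions, 1 was found in the same way. *USP*, the UDP-sugar pyrophosphorylase gene, changed by 0.06 and 0.01, with no call.

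Genes of flavonol, sterol and glucosinolate glycosylation changed little or were not called. *UGT78D1*, which puts rhamnose on flavonols, had wild-type mock signals of 1301, 1263 and 1503 and wild-type salt signals of 822.3, 1515 and 563.8. Wild-type salt replicate 2 was above the mock arrays and the other salt arrays were below them, and the change of -0.60 (SE 0.26, adjusted p = 0.0812) was not called, while without that replicate it was -0.99 (SE 0.15, adjusted p = 0.000107). Its overexpressor arrays gave 842, 751.3 and 707.6 in mock and 892, 941.1 and 854.8 in salt, 0.23 (SE 0.26, adjusted p = 0.53). *UGT78D3*, which puts arabinose on flavonols, was near background. *UGT80B1*, a sterol glucosyltransferase gene, was called higher in the overexpressor (0.52, SE 0.15, adjusted p = 0.0142) and not in the wild-type (-0.25). *UGT74B1*, which glucosylates the thiohydroximate precursor of glucosinolates, had wild-type signals of 1552, 1926 and 1637 in mock and 1746, 1816 and 1453 in salt, with a change of -0.03. *UGT88A1* had signals of 1966, 1962 and 2383 in wild-type mock and 1024, 2599 and 1704 in wild-type salt, where replicate 2 was the highest of the 6, and was called in neither genotype. Without wild-type salt replicate 2 it was called lower in the wild-type (-0.66, SE 0.17, adjusted p = 0.00642).

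In the rest of family 71, *UGT71B1* rose, from 321.6, 452.4 and 424.9 to 758.3, 544.8 and 555.6 in wild-type seedlings and from 257.2, 297.6 and 281.9 to 931.7, 994.8 and 932.9 in the overexpressor. Salt and mock arrays did not overlap in either genotype, and the overexpressor arrays were lower than the wild-type arrays in mock and higher in salt. *UGT71B1* rose by 0.63 (SE 0.15, adjusted p = 0.00596) in wild-type seedlings and by 1.77 (SE 0.15, adjusted p = 3.33e-06) in the overexpressor. Its genotype difference under salt was 0.64 (SE 0.15, adjusted p = 0.0552), and it was called without wild-type salt replicate 1 (0.79, adjusted p = 0.0138). *UGT71B8* changed by -0.28 and 0.92 and was not called, and neither were *UGT71C3* and *UGT71C4*. *UGT71C1* went from 205.6, 302.3 and 149.5 to 107.8, 197.9 and 92.8 in wild-type seedlings and from 222.4, 297.4 and 217.2 to 47, 106.1 and 64.7 in the overexpressor, and was called in the overexpressor (-1.82, SE 0.36, adjusted p = 0.00126) and not in the wild-type (-0.74, SE 0.36, adjusted p = 0.122). Without wild-type salt replicate 2 the wild-type change was -1.07 and was called (adjusted p = 0.0213). Its neighbour *UGT71C2* was also called lower in the overexpressor (-0.88, SE 0.27, adjusted p = 0.0199), a call that was lost without overexpressor mock replicate 3 (-0.70, adjusted p = 0.0934) or salt replicate 2 (-0.84, adjusted p = 0.057) and with quantile normalization.

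Among families with at least 3 genes the medians of the salt changes ran from below 0 in family 72 (-1.48 in wild-type seedlings and -1.64 in the overexpressor, 4 genes) to above 2 in family 73 in the wild-type. Family 76, with 8 genes, had 4 risen in each genotype, with 2 fallen in the overexpressor (*UGT76C1* and *UGT76C2*), and medians of 1.72 and 0.90. Family 74, with 5 genes, had 2 risen and 1 fallen in each, and medians of 0.49 and 0.41. Family 84, also with 5, had 1 risen and 2 fallen in wild-type seedlings and 1 and 3 in the overexpressor, with medians of 0.20 and -1.06. In family 71 none of 9 genes fell with a call in the wild-type, 3 did so in the overexpressor, and 3 rose in each. These are counts of few genes and describe the families on these arrays. Over all probe sets 17.2% rose and 21.9% fell in wild-type seedlings, and 17.1% and 24.0% in the overexpressor.

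Neighbouring UGT genes often differed in their changes. By the order of protein-coding genes, 32 of the 50 genes lay in 13 runs of neighbours, each within 3 genes of the next. Opposite calls within a run were found only for *UGT84A1*, *UGT84A3* and *UGT84A4*, in both genotypes, where the changes spanned 6.01 in wild-type seedlings and 7.63 in the overexpressor, or 4.24 and 4.91 with signals raised to the 20th percentile. In other runs a strong riser stood next to a gene that was not called or that changed much less. *UGT73C1* and *UGT73C2* were 7.14 and 6.65 apart, or 4.80 and 4.96 with signals raised to the 20th percentile, *UGT73C7* and *UGT73D1* 3.48 and 4.45, and *UGT74F2* and *UGT74F1* 2.22 and 2.13. In the run of 5 UGT85A genes the changes spanned 3.86 and 3.55, or 3.86 and 2.7 on that floor. Neighbours that moved alike were *UGT73B4* and *UGT73B5*, 0.69 and 0.84 apart, and *UGT76C1* and *UGT76C2*, 0.30 and 0.51 apart.

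**Figure D3:**
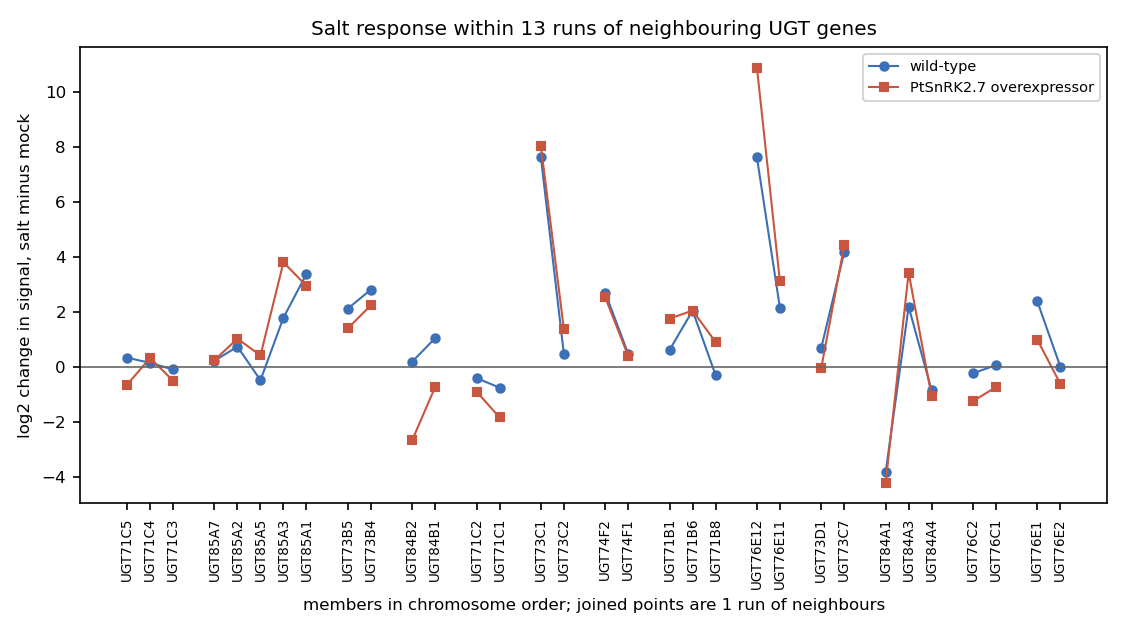
Log2 change in signal from mock to salt (vertical axis) in the wild-type (blue circles) and the overexpressor (red squares) for the 32 UGT genes that lie in 13 runs of neighbours. Genes are in chromosome order along the horizontal axis, and lines join the members of a run. UGT84A3 rose between UGT84A1 and UGT84A4, which fell, in both genotypes.

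Between the genotypes, 0 of the 50 genes were called higher and 0 lower in mock seedlings, against 0.132% and 0.431% of all probe sets. At an unadjusted p under 0.05 the limma fit gave 5 higher and 9 lower, with 9.3% of all probe sets under that p. A fit of the mock groups alone called 2 and 3 after adjustment, against 0.642% and 0.963% of all probe sets, and the methods' t-test 0 and 0. Under salt 0 genes were called higher and 1 lower, against 1.23% and 0.783% of all probe sets, with 3 and 8 at an unadjusted p under 0.05, where 17.6% of all probe sets were. The gene was *UGT74B1*, named above for glucosinolate synthesis. Its signals were 1381, 1353 and 1252 in overexpressor mock and 1007, 987.9 and 1130 in overexpressor salt seedlings, and in each treatment all 3 were below the wild-type arrays. Under salt the difference was -0.68 (SE 0.12, adjusted p = 0.0175), and in mock -0.35 (SE 0.12, adjusted p = 0.308). The call under salt was lost without overexpressor salt replicate 1 (-0.66, adjusted p = 0.0864) or replicate 2 (-0.64, adjusted p = 0.0584), in the fit of the salt groups alone (adjusted p = 0.178) and without the intensity trend (adjusted p = 0.0646). *UGT74B1* was also called lower with salt in the overexpressor (-0.35, SE 0.12, adjusted p = 0.0284), which did not hold with arrays centred on their medians (-0.21, adjusted p = 0.213), without the intensity trend (adjusted p = 0.055) or without mock replicate 1 or 2 or salt replicate 1 or 2 (adjusted p = 0.0764 to 0.0922).

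**Figure D4:**
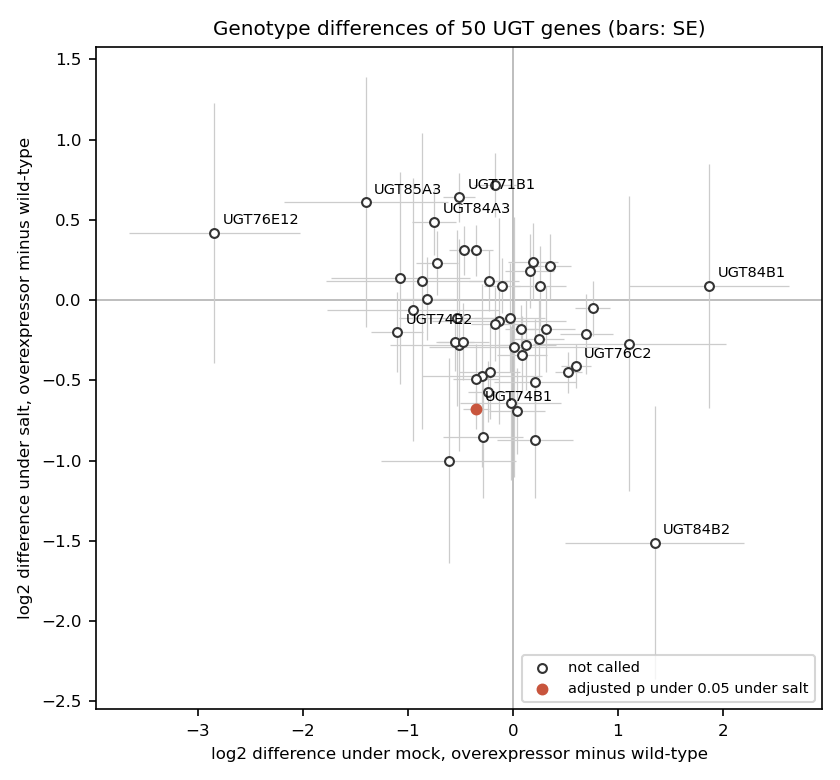
Log2 difference between the overexpressor and the wild-type in mock (horizontal axis) and under salt (vertical axis) for the 50 UGT genes, with standard errors from limma as bars. The filled point is UGT74B1, the 1 gene called in either comparison. Of the genes with long bars, UGT76E12 and UGT84B2 were near background in at least 1 group, and UGT72E3 and UGT85A3 in none.

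The salt response itself was compared between the genotypes by the interaction, the change in the overexpressor minus that in the wild-type. No UGT gene was called, 0 larger and 0 smaller, against 0.246% and 0.0528% of all probe sets, and 9 and 5 had an unadjusted p under 0.05, as had 12.1% of all probe sets. The 3 genes nearest to the threshold were described above. *UGT71B1* had an interaction of 1.14 (SE 0.22, adjusted p = 0.0519). *UGT76C2* and *UGT71C5* had interactions of -1.02 (SE 0.20, adjusted p = 0.0519) and -0.98 (SE 0.19, adjusted p = 0.0519), with signals above the wild-type in mock and below it in salt. Without wild-type salt replicate 2 these 3 interactions were 1.06, -1.16 and -1.01 and were called (adjusted p = 0.0223, 0.00604 and 0.0167), together with *UGT78D1* at 1.22 (adjusted p = 0.0104) and *UGT85A1* at -0.78 (adjusted p = 0.0466). In that fit 2.05% and 1.29% of all probe sets were called larger and smaller. Leaving out wild-type salt replicate 1 also gave a call for *UGT71B1* (1.30, adjusted p = 0.0104), *UGT76C2* (-0.95, adjusted p = 0.0451) and *UGT76E11* (1.18, adjusted p = 0.0385), and leaving out wild-type mock replicate 1 gave one for *UGT71B1* (1.29, adjusted p = 0.0409).

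The genotype comparisons also moved with wild-type salt replicate 2. With this array left out, 2 genes were called higher and 4 lower in mock seedlings, although none of the mock arrays changed, and 0.492% and 0.980% of all probe sets were then called. *UGT76C1* and *UGT76C2* were the higher ones (0.76 and 0.60, adjusted p = 0.0482 and 0.0154). *UGT74E2*, *UGT78D1*, *UGT76E11* and *UGT85A2* were lower (-1.10, -0.82, -0.72 and -0.55, adjusted p = 0.00231, 0.00738, 0.0182 and 0.0457). Under salt 7 genes were then called lower, *UGT74B1* among them, and 0 higher, against 3.48% and 5.07% of all probe sets. The others were *UGT73C7* (-1.35), *UGT73B4* (-1.34), *UGT85A1* (-0.69), *UGT87A2* (-0.62), *UGT76C2* (-0.55) and *UGT85A2* (-0.49), with adjusted p = 0.0132 to 0.0438. For *UGT73C7*, *UGT73B4*, *UGT85A1*, *UGT87A2*, *UGT76C2* and *UGT85A2* wild-type salt replicate 2 was the lowest wild-type salt array.

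Genes of other conjugation reactions, and of the release of glucose from conjugates, were measured beside the UGT genes. Of all probe sets 17.2% rose and 21.9% fell in the wild-type, and 17.1% and 24.0% in the overexpressor. Tau and phi glutathione transferases join glutathione to foreign and reactive compounds. Of 13 such genes paired through the annotation, 3 rose and 7 fell in the wild-type, with a median of -0.45, and 4 and 7 in the overexpressor, with a median of -0.96. *GSTU16* rose by 1.25 and 1.96, and *GSTF4* changed by -1.48 and -2.08. With 8 more genes from the supplementary tables, which were picked on these arrays, the counts were 11 and 7 of 21 in wild-type seedlings and 12 and 7 in the overexpressor, so the balance depends on those 8. BGLU genes encode glycoside hydrolases of the family that can split glucosides. Of 20 paired through the annotation, 10 rose and 1 fell in the wild-type, with a median of 1.00, and 8 and 1 in the overexpressor, with a median of 0.78. *BGLU28* rose by 3.79 and 5.55 (limma adjusted p = 9.62e-07 and 4.59e-08), and *BGLU47* changed by -1.80 and -0.87 (adjusted p = 0.000293 and 0.0234).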

How the data were processed

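Seedling RNA of 12 samples was hybridised to ATH1 arrays. The deposited values are MAS5 signals, linear intensities per probe set that the authors scaled on each array to a common trimmed mean, the same in all arrays once 2% of the values at each end were left out. The software version and the annotation build are not given in the sources used here, and probes of close UGT relatives could cross-hybridise, which was not tested. Here 64 control probe sets were left out of 22810, and signals were taken to log2. limma 3.58.1 in R 4.3.3 fitted 4 group means with an intensity trend in the prior variance, and p-values were adjusted by Benjamini-Hochberg over 22746 probe sets. The test is two-sided. The number of arrays, 3 in each group, limits the precision. The t-test named in the paper's methods was run here as an alternative, and its counts differ from those that the paper reports. The script was tested on simulated data. UGT genes, gene lists and comparisons were chosen with earlier results of these data known. Genes named with values are those called in a genotype comparison or the interaction, the highest and lowest changes over 3-fold, the highest signals, the extremes of each family and their chromosome neighbours. Others were named after their values were seen, to give each role. As alternatives, signals were quantile normalized, centred on their medians or raised to a floor at the 20th percentile, and the others were a filter at the 40th percentile of mean signal, no trend, array weights, fits of only the groups compared, the replicate number as a block, the annotation alone, the study's thresholds and each array left out. Gene order came from the RefSeq gene table. Same-numbered replicates did not deviate together (correlations of -0.07 to 0.09), so numbers were not used to pair samples.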

Additional observations from a re-analysis of the deposited data

Results flagged for a closer look

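A probe set that matches both *AT2G36790* and *AT2G36800*, neighbouring UGT73C genes, was left out of the 50 because its signal cannot be assigned to either. The pairing came from the study's supplementary tables, which list genes selected on these same arrays, so its changes are not independent of that choice. The response of this probe set to salt differed between the genotypes by a test of the difference itself. Signals were 618.2, 620.8 and 633.9 in wild-type mock, 4521, 2762 and 4676 in wild-type salt, 166.4, 194.3 and 178.2 in overexpressor mock and 4015, 3259 and 3586 in overexpressor salt arrays. The overexpressor arrays were far below the wild-type arrays in mock, and the groups overlapped under salt. The change with salt was 2.64 in wild-type and 4.33 in overexpressor seedlings, and the difference between them was 1.70 (SE 0.24, limma adjusted p = 0.0201). The genotypes differed by -1.80 in mock (SE 0.17, adjusted p = 0.000366) and by -0.11 under salt (adjusted p = 0.813). *UF3GT* (*UGT79B1*), an anthocyanin glycosyltransferase gene listed under its older name and so not among the 50, also differed in its response by the same test. Its signals were 514.4, 521.9 and 796.3 in wild-type mock, 1804, 1095 and 1381 in wild-type salt, 165.8, 141.7 and 103.9 in overexpressor mock and 1842, 1311 and 1541 in overexpressor salt arrays. Again the overexpressor arrays were below all wild-type arrays in mock and the groups overlapped under salt. *UF3GT* rose by 1.22 in wild-type and 3.53 in overexpressor seedlings (adjusted p = 0.00113 and 4.04e-07), a difference of 2.30 (SE 0.33, adjusted p = 0.0201), and the genotypes differed by -2.15 in mock (SE 0.23, adjusted p = 0.00101). For these probe sets no alternative processing is given. Over all probe sets the limma interaction called 56 larger and 12 smaller. Those counts were 1 and 2 without the intensity trend, and 4 and 1 without overexpressor mock replicate 3.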

How the results depend on the processing

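No called difference of the 50 UGT genes changed its sign under the alternatives run, and none was called with the opposite sign. Differences that were not called did change sign, 67 of them over the 5 comparisons, and with the floor these included the wild-type salt change of *UGT84B1* (1.06 to -0.02) and the interactions of *UGT73C1* (0.41 to -0.08) and *UGT84A1* (-0.38 to 0.57). In the salt comparisons the counts of risen and fallen UGT genes (19 and 7 for wild-type seedlings, 20 and 14 in the overexpressor) moved most with the methods' t-test, which called 0 and 0 for wild-type seedlings and 15 and 9 in the overexpressor, and with the study's thresholds of 3-fold and an adjusted p under 0.01, which left 14 and 2 and 15 and 3. With each array left out in turn they were 17 to 20 and 6 to 12 for wild-type seedlings and 18 to 20 and 11 to 15 in the overexpressor. The genotype counts in mock, 0 and 0, were 3 and 5 with array weights, against 1.1% and 1.48% of all probe sets. They were 2 and 3 in a fit of the mock groups alone, and 0 to 2 and 0 to 4 with single arrays left out. Those under salt, 0 and 1, were 1 and 7 with array weights, 1 and 1 with median centring or the filter at the 40th percentile, and 0 and 0 in the fit of the salt groups alone, with the methods' t-test, with the study's thresholds and without the intensity trend. Of all probe sets 7.46% were called higher and 6.17% lower under salt with array weights, 2.4% and 0.668% with median centring and 3.0% and 2.03% with the filter. Single arrays left out gave 0 to 1 and 0 to 7 UGT genes under salt. The interaction counts, 0 and 0, were 4 and 3 with array weights, against 3.12% and 2.51% of all probe sets. They were 1 and 1 with quantile normalization (0.347% and 0.0967% of all) or median centring (0.637% and 0.11%), and 1 and 2 with the filter (0.799% and 0.308%). Single arrays left out gave 0 to 2 and 0 to 3. With the replicate number as a block the counts were 19 and 9, 20 and 15, 0 and 0, 0 and 1, and 0 and 0 in the same order, and samples share only that number. Array weighting gave wild-type salt replicate 2 a weight of 0.227, the lowest of the 12, and wild-type salt replicate 1 the next lowest, 0.369. Wild-type salt replicate 3 had the highest weight, 2.45. The weighted wild-type salt group, and the counts with array weights that use it, therefore rest mostly on that 1 array. Leaving out wild-type salt replicate 1 also raised the genotype calls under salt, from 1.23% higher and 0.783% lower of all probe sets to 2.42% and 2.2%. Signals near background, 8 of 50 genes in each mock group, limit the size of the changes of *UGT76E12*, *UGT73C1*, *UGT71B5*, *UGT84A1* and *UGT84B2*. One line and 3 arrays a group limit the genotype comparisons.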

Other observations

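Other probe sets read UGT genes together with another gene or under an older name, and were not among the 50. The probe set shared by *UGT73B2* and *UGT73B3* rose by 1.26 in wild-type and 0.86 in overexpressor seedlings (limma adjusted p = 0.000323 and 0.00373), from 1174 ± 21.6 to 2906 ± 845 and from 1321 ± 265 to 2366 ± 154 (mean ± SD, 3 arrays). *UGT72B1*, listed as *GT72B1*, which acts on chlorinated phenols, rose by 1.49 and 1.86 (adjusted p = 0.000248 and 4.14e-05), while its relative *UGT72B3* fell. *UGT80A2*, a sterol glucosyltransferase gene listed as *SGT*, changed by 0.09 and 0.06 and was not called. The probe set of *UGT89B1*, shared with *AT1G73885*, rose by 0.41 and 0.75 and was 0.57 higher in the overexpressor under salt (adjusted p = 0.0334). That of *UGT71D1*, shared with *AT2G29710*, changed by -0.56 in wild-type seedlings, which was not called (adjusted p = 0.0542), and by -1.0 in the overexpressor (adjusted p = 0.00215). *AT5G54010* (*UGT79B6*), listed without a UGT symbol, had signals of 3.07 to 22.9, near background, and changed by 0.49 and -0.11 with no call. *UF3GT* (*UGT79B1*) is described above.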
